A study of Mesocricetus auratus with 11 samples.

Results

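Scaffold KB708147.1 of the Syrian hamster genome assembly was examined because the MT2 cell line gave a larger share of its reads there than primary fetal cells did. Its members were all CpGs on that scaffold name in the 11 libraries, with the reads of both strands of a CpG summed. That gave 53090 of the 2010882 CpGs in the files, or 2.64%, lying between positions 26400 and 20663730. Of these members, 3020 had at least 10 reads in every library and are called common CpGs below, out of 81297 common CpGs on all scaffolds. The scaffold was chosen by its measured read share in MT2 against primary cells, so that contrast is a description without a test. Methylation played no part in the choice.

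The study profiled CpG methylation by reduced representation bisulfite sequencing, which reads fragments cut at CCGG sites after unmethylated cytosines have been converted, so that the C reads at a CpG count methylated molecules. Primary cells came from 4 individual female fetuses at 13.5 days of gestation, without head, viscera and limbs, and were untreated. They are a mixture of cells of skin, muscle and skeletal origin at several stages of differentiation. MT2 is a female line grown out of 1 morphologically transformed colony, induced by benzo[a]pyrene at 5 µg/mL, that bypassed senescence and was used at about passage 28. From 1 thawed stock, 4 wells received 0.05% DMSO as vehicle and 3 analysed wells received 5 µM 5aCdR for 48 h. 5aCdR is decitabine, a cytidine analogue that is built into DNA and traps the maintenance methyltransferase, so that methylation is lost as cells divide. The MT2 wells are technical replicates of 1 line, and every p-value below measures the spread between these wells and fetuses only. A clonal line and a mixture of fetal cells also differ in cell type, which cannot be told apart from transformation in this design.

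As background, methylation in vertebrate somatic cells is high at isolated CpGs and low in CpG islands, the dense clusters found at many gene starts. Cultured and transformed lines commonly lose methylation at sparse CpGs and gain it at some islands. The number of reads that a region takes in such a library depends on how much of its DNA was present and on how well its fragments were cut, kept and mapped. Library totals ran from 17834610 to 46148127 reads over listed CpGs. Genes on the scaffold were not analysed here.

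At the common CpGs, the scaffold took 3.10%, 3.06%, 2.96% and 3.11% of the reads of the 4 vehicle libraries. The share was 3.25%, 3.25% and 3.16% in the 3 libraries given 5aCdR. It was 2.41%, 2.36%, 2.35% and 2.31% in the 4 primary libraries. All 7 MT2 libraries lay above all 4 primary libraries, and the spread within each group was small beside the gap between them (3.06% ± 0.0711 for vehicle, 3.22% ± 0.0494 for 5aCdR and 2.36% ± 0.0386 for primary cells, mean ± SD, n = 4, 3 and 4). The ratio of the mean shares was 1.30 for vehicle over primary cells and 1.37 for 5aCdR over primary cells. Over all listed CpGs the shares were 3.45% ± 0.0550, 3.50% ± 0.00812 and 2.34% ± 0.0152, and the ratio of vehicle to primary was 1.47. The larger ratio over all listed CpGs went with a longer list: the scaffold held 3.08% to 3.22% of the CpGs listed per MT2 group and 2.55% of those listed in primary cells.

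**Figure D1:**
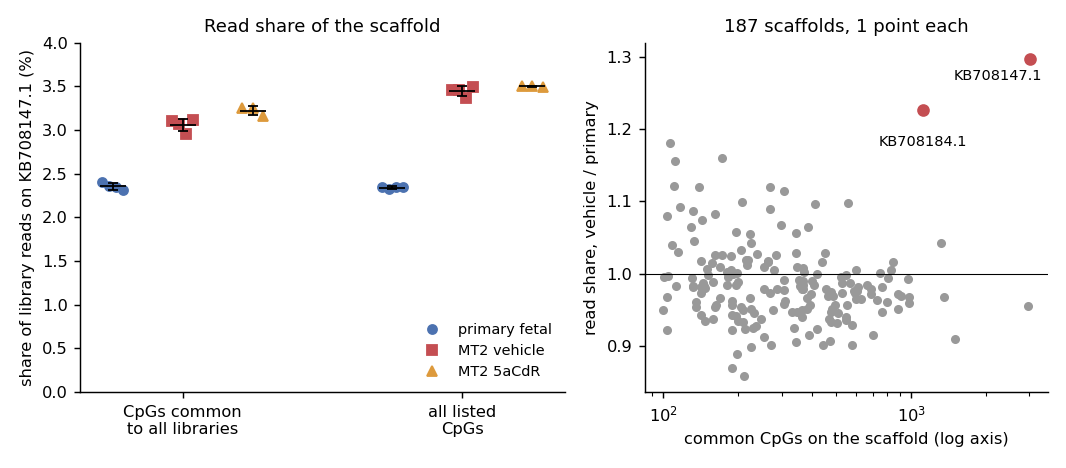
Left: share of library reads (%) on the scaffold for each library, at CpGs common to all libraries and at all listed CpGs, with bars for the mean and SD over 4 primary, 4 vehicle and 3 5aCdR libraries. Right: ratio of the mean read share of vehicle to primary libraries against the number of common CpGs (log axis) for each of 187 scaffolds, where KB708147.1 lies highest at 1.30 and KB708184.1 next at 1.23.

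The same pattern showed in reads per CpG. In the primary libraries, the median common CpG of the scaffold had 30, 30, 36 and 49 reads, against 36, 36, 44 and 61 for the common CpGs of other scaffolds. In the vehicle libraries the order was the other way round, with 66, 36, 33 and 62 reads on the scaffold and 59, 33, 32 and 53 elsewhere. In the 5aCdR libraries the medians were 86, 69 and 79 on the scaffold and 73, 59 and 67 elsewhere. By the median CpG, the scaffold was thus read less than the rest in primary cells and somewhat more than the rest in MT2. By the mean over CpGs, it was read less than the rest in every library. These means were 89.0, 48.4, 46.2 and 80.8 reads against 107, 59.1, 58.5 and 97.1 elsewhere with vehicle. With 5aCdR they were 110, 88.4 and 99.1 against 126, 102 and 117, and in primary cells 40.1, 39.6, 48.1 and 65.3 against 62.7, 63.3, 77.2 and 106. For single CpGs, the ratio of the vehicle to the primary read share had a median of 1.26 on the scaffold with an interquartile range of 0.997 to 1.62, and 74.8% of its common CpGs lay above 1. Elsewhere the median was 0.970 and 46.8% lay above 1.

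Among the 187 scaffolds with at least 100 common CpGs, KB708147.1 ranked first for vehicle over primary cells and first for 5aCdR over primary cells. Both ranks follow from the choice, which set MT2 against these primary libraries. The ratios of the other 186 scaffolds for vehicle over primary ran from 0.858 to 1.23, with a median of 0.979. The next highest, KB708184.1, had a ratio of 1.23. Vehicle libraries lay above primary libraries without overlap on 9 of the 187 scaffolds, or 4.81%, and below them on 17, or 9.09%.

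The raised share ran along the whole scaffold. In windows of 1 Mb, all 4 vehicle libraries lay above all 4 primary libraries in 19 of 21 windows at common CpGs, and the 5aCdR libraries did so in all 21. Over all scaffolds, this one included, 3.65% of the 932 windows with at least 30 common CpGs did so for vehicle and 4.51% for 5aCdR. At that minimum, 17 of 19 windows of this scaffold did so for vehicle and all 19 for 5aCdR. Of the 913 windows of other scaffolds, 1.86% did so for vehicle and 2.52% for 5aCdR. At all listed CpGs the count was 21 of 21 windows for both groups. The ratio of vehicle to primary at common CpGs ran from 1.19 to 1.58 with a median of 1.30, and the 913 windows of other scaffolds with at least 30 common CpGs ran from 0.718 to 1.45 with a median of 0.960. Every window of the scaffold lay above the median of the others.

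The window with the highest ratio, 1.58, was the one from 12000001 to 13000000, with 57 common CpGs. Its reads per 10000 reads of the library were 12.6, 11.1, 10.3 and 10.8 with vehicle and 7.20, 6.01, 7.85 and 7.28 in primary cells. The 2 windows that followed, from 10000001 to 11000000 and from 13000001 to 14000000, had ratios of 1.57 and 1.48. The first of these rested on 4 common CpGs, so its ratio is poorly fixed. All of windows 10 to 14 together held 177 common CpGs, against 2034 in the first 9 windows and 809 in windows 15 to 21. The middle of the scaffold, where the ratios were highest, was therefore also where the fewest CpGs were measured.

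The lowest ratio, 1.19, was in the window from 16000001 to 17000000, where vehicle libraries held 5.46, 5.08, 5.59 and 5.84 reads per 10000 and primary libraries 4.41, 4.74, 4.87 and 4.38. The window from 19000001 to 20000000 had a ratio of 1.20 with 19.4, 15.0, 17.2 and 19.2 reads per 10000 with vehicle and 15.2, 14.2, 14.8 and 14.6 in primary cells. Vehicle replicate 2 there lay within the primary range. The first window, from 1 to 1000000, also had a ratio of 1.20, with 6.67, 6.83, 7.87 and 7.73 reads per 10000 with vehicle and 6.58, 6.14, 6.03 and 5.44 in primary cells. Even the lowest windows thus had a ratio above 1.

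**Figure D2:**
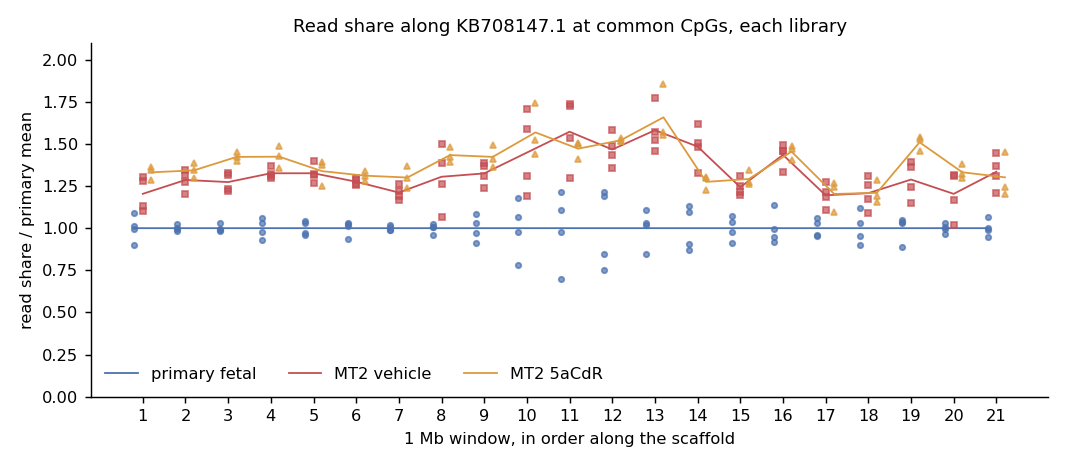
Read share at common CpGs divided by the mean of the primary libraries, for 21 windows of 1 Mb in order along the scaffold; each point is 1 library and the lines join group means. The vehicle and 5aCdR means stay above the primary mean in every window, between 1.19 and 1.66, and the points spread most in windows 10 and 11, which hold 17 and 4 common CpGs.

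The raised share did not belong to 1 kind of CpG. The local density of a CpG was counted as the covered CpGs within 250 bp on each side of it, itself included. In the classes of 1 to 4, 5 to 9, 10 to 19, 20 to 29 and 30 or more such CpGs, the ratio of vehicle to primary on the scaffold was 1.33, 1.32, 1.30, 1.29 and 1.28. Divided by the ratio of other scaffolds in the same class, these values were 1.30, 1.29, 1.35, 1.39 and 1.35. By the methylation level in primary cells, the ratios divided in this way were 1.30 below 20%, 1.28 from 20 to 80% and 1.39 above 80%. Vehicle libraries lay above primary libraries without overlap in each of these classes.

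Between the 2 MT2 groups, the share was 1.05 times higher with 5aCdR. The choice did not set these groups against each other, but it used MT2 read shares, so these values are not independent of it. The exact two-sided permutation test over the 35 splits of 7 libraries gave p = 0.0286, the smallest value it can give, with all 3 treated libraries above all 4 vehicle libraries. For the same reason this p is a description and cannot be read as a test. By this ratio the scaffold ranked 14 of 187, within the spread of other scaffolds, whose ratios ran from 0.830 to 1.14. At all listed CpGs the ratio was 1.01 and the groups overlapped (exact permutation p = 0.114).

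Methylation was compared at the 3020 common CpGs. Their mean level was 35.3%, 35.4%, 35.0% and 35.5% in the vehicle libraries. It was 34.2%, 33.6%, 33.4% and 34.5% in the primary libraries and 31.0%, 30.8% and 29.9% in the 5aCdR libraries. Each vehicle library was thus slightly more methylated here than each primary library. The means were 35.3% ± 0.214 with vehicle and 33.9% ± 0.518 in primary cells (SD, n = 4 each), a difference of 1.35 percentage points (exact two-sided permutation test, p = 0.0286, adjusted p = 0.0381 by Benjamini-Hochberg over 4 tests of methylation). On all other scaffolds together the mean fell from 41.4% in primary cells to 38.2% with vehicle, but 35 of the other 186 scaffolds with at least 100 common CpGs also rose. KB708147.1 ranked 19 of 187 by this difference, and KB708184.1 rose by 1.60 points. The rise in the unmatched mean rested on the CpGs that were measured: with at least 20 reads in every library the difference was -0.211 points (exact permutation p = 0.4), and with reads pooled over CpGs it was 0.589 points (exact permutation p = 0.286). Without vehicle replicate 1, 2 or 4 it was 1.34, 1.32 and 1.29 points (exact permutation p = 0.0571 each).

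The common CpGs of the scaffold differed in kind from those of the rest. They had a median density of 11, against 8 elsewhere, and a median primary level of 17.5%, against 37.6%. Sparse CpGs of the lowest density class made up 19.1% of them and 30.4% elsewhere, and CpGs below 20% in primary cells made up 51.1% and 41.9%. Each library was therefore compared with CpGs of other scaffolds in the same 5 classes of density and 6 classes of primary level, weighted as on the scaffold. The 4 primary libraries set the level classes, so that their distance from matched CpGs is near 0 by construction. Density counted CpGs listed in any library, and the scaffold held a larger share of the CpGs listed in MT2 than in primary cells. Common CpGs were 5.69% of its members and 4.00% of CpGs elsewhere. The density of its common CpGs is therefore not independent of the choice by read share.

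Against matched CpGs, the scaffold was more methylated by 2.63, 2.70, 2.29 and 2.93 percentage points in the vehicle libraries. In the primary libraries the distance was 0.172, -0.0856, -0.477 and 0.243 points, and in the 5aCdR libraries 2.43, 2.69 and 1.55 points. All 7 MT2 libraries were above all 4 primary libraries in this measure. Matched CpGs fell from 34.0% in primary cells to 32.6% with vehicle. The excess of the scaffold over matched CpGs rose by 2.67 points between primary and vehicle libraries (2.64 ± 0.265 against -0.0370 ± 0.326, SD, n = 4 each). The exact two-sided permutation p was 0.0286, with an adjusted p of 0.0381. Neither value can be read as a test, because the primary libraries set the level classes and the vehicle libraries did not. The rise in the excess is therefore a description.

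An excess of this kind was common among scaffolds. Vehicle libraries exceeded primary libraries in it without overlap on 44 of 187 scaffolds, or 23.5%, and KB708147.1 ranked 30 of 187. The other scaffolds ran from -8.01 to 9.99 points with a median of 0.449. Of the 6 scaffolds with at least 1000 common CpGs, KB708147.1 had the highest excess, and the other 5 ran from -1.69 to 1.43. KB708184.1 had an excess of 1.33 points.

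By density alone, the excess was found at densities below 20 and not at 20 or more. At the lowest density, the scaffold kept its primary level in MT2 (57.5% ± 0.947 with vehicle and 57.5% ± 1.37 in primary cells, SD, n = 4 each, 576 CpGs), while matched CpGs fell from 57.6% to 50.6%. The excess was 7.05 points in this class, 3.64 at a density of 5 to 9 and 2.27 at 10 to 19, in each without overlap between vehicle and primary libraries. At densities of 20 to 29 and 30 or more, the excess was -0.311 and -0.345 points and the libraries overlapped. These dense CpGs rose on the scaffold from 8.10% to 10.0% and from 2.21% to 3.34%, against 8.15% to 10.4% and 2.23% to 3.71% at matched CpGs. Density and level went together: 333 of the 377 CpGs at 20 to 29 and 580 of the 594 at 30 or more were below 20% in primary cells. Not every level at densities below 20 showed the excess. Vehicle and primary libraries overlapped at 5 to 9 below 20% (0.275 points) and at 10 to 19 from 20 to 80% (0.649) and above 80% (1.51). They did not overlap at the other levels of these densities. The primary libraries set the level classes in each of these comparisons too, so a lack of overlap here is a description. How often such classes of other scaffolds lack overlap was not computed. The difference between the classes was not tested.

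By primary level, the excess was 1.18 points below 20%, 4.95 points from 20 to 80% and 3.07 points above 80%, without overlap in each, which is again a description. The class with the widest gap held 279 CpGs of low density and intermediate level, at 54.1% ± 1.17 with vehicle and 52.4% ± 2.98 in primary cells, where matched CpGs fell from 52.8% to 43.9%. A second class, 358 CpGs of density 10 to 19 below 20% in primary cells, rose from 3.94% ± 1.22 to 13.8% ± 0.440, and matched CpGs from 3.74% to 9.88%. The first class kept methylation that its matches lost, and the second gained more than its matches did. CpGs above 80% in primary cells fell on the scaffold too, from 92.3% ± 1.65 to 82.8% ± 0.563, against 92.2% to 79.6% at matched CpGs.

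**Figure D3:**
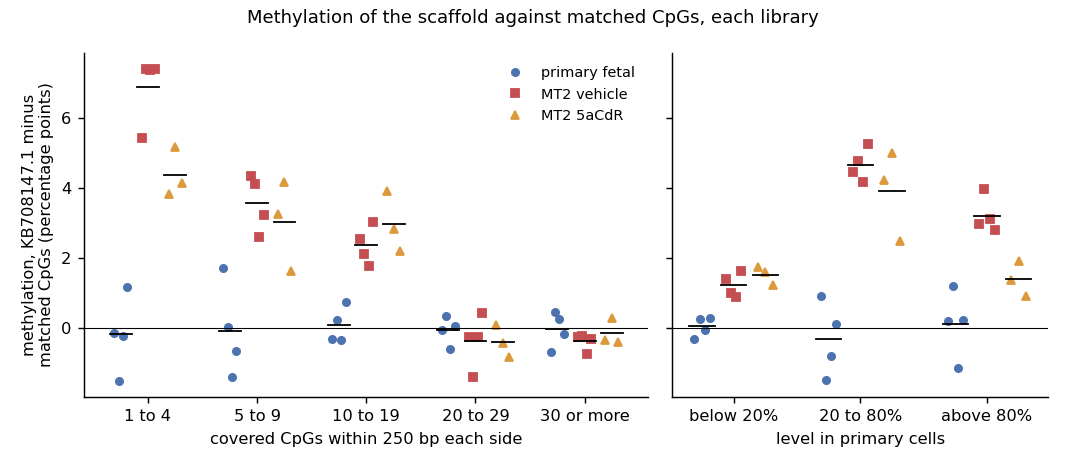
Methylation of the scaffold minus that of matched CpGs on other scaffolds (percentage points), 1 point per library with lines at the group means, by density (covered CpGs within 250 bp on each side, left) and by the level in primary cells (right). Vehicle and 5aCdR libraries lie above primary libraries at densities up to 19 in the left panel, apart from a 5aCdR library at 1.63 and a primary library at 1.72 in the class of 5 to 9, and no group stands apart at densities of 20 or more.

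Few CpGs of the scaffold switched from one state to the other. Of 1282 CpGs below 20% in all 4 primary libraries, 8 had 50% or more in all 4 vehicle libraries, or 0.624%, against 0.489% on other scaffolds. These 8 CpGs lay in 5 tiles of 1 kb. Of 1229 CpGs below 20% in all vehicle libraries, 3 had 50% or more in all primary libraries, or 0.244%, against 1.31% on other scaffolds. These shares were not matched on density or level, and their differences from other scaffolds were not tested.

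Along the scaffold, the methylation excess was uneven, unlike the read share. Of the 19 windows of 1 Mb with at least 20 common CpGs, 13 had an excess above 0 and 6 below 0, from -2.38 to 9.93 points with a median of 2.68. By the methylation level itself, without matching, vehicle libraries lay above primary libraries without overlap in 5 of the 19 windows. Over all scaffolds 12.1% of such windows did so. Vehicle libraries lay below primary libraries in 1 window, where 23.6% over all scaffolds did. The highest excess was in the window from 4000001 to 5000000, at 46.9% ± 0.957 with vehicle and 38.2% ± 1.70 in primary cells over 211 CpGs. Without this window the excess of the scaffold was 2.13 points, and the rise of the unmatched mean was 0.802 points with overlap between the groups (exact permutation p = 0.0571). Over the 19 windows the read ratio and the methylation excess had a Pearson r of -0.0604 and a Spearman rho of -0.0404, a description of windows that share their libraries. Windows with the highest read ratios were therefore not those with the highest methylation excess.

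**Figure D4:**
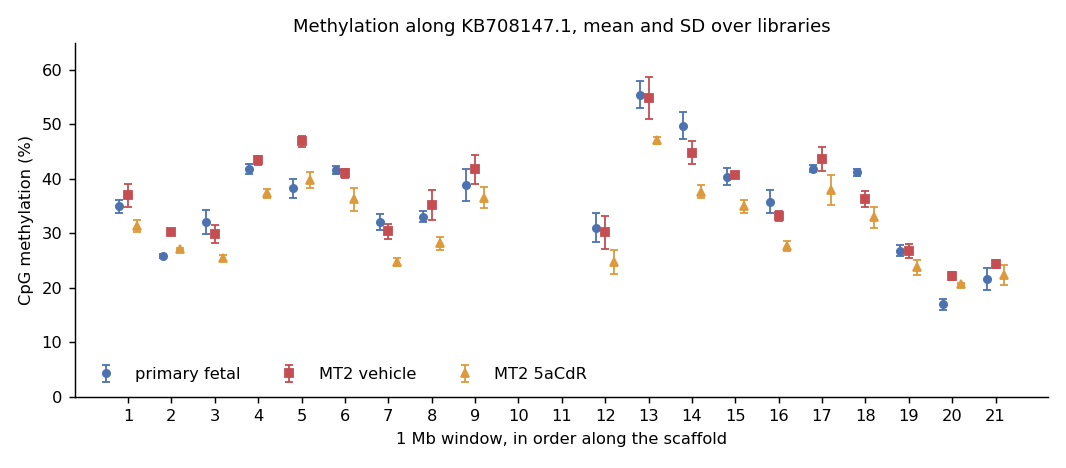
Mean methylation (%) with SD over 4 primary, 4 vehicle and 3 5aCdR libraries in windows of 1 Mb in order along the scaffold; windows 10 and 11 held under 20 common CpGs and are not drawn. Vehicle lies farthest above primary cells in window 5, at 46.9% against 38.2%, and the 5aCdR mean lies below the vehicle mean in all 19 windows.

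Single regions were tested on their methylated and unmethylated reads by quasi-binomial logistic regression, with the dispersion moderated by limma and Benjamini-Hochberg adjustment over all scaffolds. Between vehicle and primary libraries, 67 of 380 tiles of 1 kb on the scaffold were called at an adjusted p below 0.05, or 17.6%, where 20.8% of all tiles were called. Of these, 38 were higher in MT2 and 29 lower, and over all scaffolds 8.55% of tiles were higher and 12.3% lower. Median levels in the 38 higher tiles were 13.1% for primary cells and 61.3% for vehicle, and in the 29 lower tiles 67.2% and 33.8%. Of 3178 single CpGs, 199 were called, 100 higher and 99 lower, or 6.26% beside 8.55% over all scaffolds. Of 115 windows of 100 kb, 26 were called, 15 higher and 11 lower, or 22.6% beside 19.2% over all scaffolds, where 7.91% were higher and 11.2% lower. The share called in total was near the background for each unit. On the scaffold the calls were about equally split by direction for single CpGs, where over all scaffolds 2.74% were higher and 5.81% lower. The number of called CpGs was 124 without vehicle replicate 1, 122 without vehicle replicate 4 and 126 without primary replicate 4, and that of called windows was 17 without primary replicate 4.

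Among the tiles that rose most, that from 19093001 to 19094000 was almost unmethylated in primary cells and methylated in every MT2 library. Its 9 CpGs had 0%, 0%, 0% and 0.174% methylation in primary cells and 72.5%, 50.0%, 55.4% and 66.1% with vehicle, a rise of 61.0 points (limma-moderated adjusted p = 2.82e-06). With 5aCdR it stood at 57.8%, 69.0% and 84.9%, overlapping the vehicle libraries. The tile from 4560001 to 4561000, with 6 CpGs, rose from 0%, 0%, 4.19% and 3.40% to 77.0%, 75.0%, 60.9% and 64.6%, by 67.5 points (adjusted p = 1.05e-05). Neither tile overlapped between vehicle and primary libraries, which follows from the rule that only tiles without overlap were named.

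The other named rises were in tiles of 3 CpGs. The tile from 322001 to 323000 rose most, by 79.9 points, from 13.5%, 0%, 26.9% and 9.43% to 85.4%, 100%, 89.8% and 94.1% (adjusted p = 0.000136). The tile from 18142001 to 18143000 rose from 13.0% ± 12.6 to 87.6% ± 18.8 and the tile from 1208001 to 1209000 from 27.1% ± 11.7 to 89.2% ± 12.6 (SD, n = 4 each, limma-moderated adjusted p = 0.00175 and 0.00373). Vehicle libraries in both ranged more widely, from 60.3% to 100% in the first and from 71.4% to 100% in the second.

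The largest fall was in the tile from 3185001 to 3186000, from 99.7%, 65.8%, 71.6% and 76.8% in primary cells to 4.30%, 10.0%, 33.3% and 13.2% with vehicle, by -63.2 points over 3 CpGs (limma-moderated adjusted p = 0.000162). The tile from 12413001 to 12414000 fell from 69.8% ± 10.1 to 29.9% ± 8.03 (adjusted p = 0.00239). In both, each vehicle library was below each primary library, as the rule for naming tiles required. The tiles from 8485001 to 8486000, 6897001 to 6898000 and 3666001 to 3667000 fell by -48.4, -41.8 and -38.7 points (adjusted p = 0.0160, 0.0113 and 0.0296). These calls depended on single libraries: none of the 3 was called without primary replicate 4, and the last was also not called without primary replicate 1, primary replicate 2 or vehicle replicate 4. Primary cells varied most in the first of them, at 48.6%, 20.0%, 47.2% and 97.6%.

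Single CpGs showed the same switches at their extremes. The CpG at 322361, in the tile that rose most, was at 0%, 0%, 0% and 5.26% in primary cells and at 100% in all 4 vehicle and all 3 5aCdR libraries (adjusted p = 0.000592). The CpG at 19093181 was at 0% in all 4 primary libraries and at 100%, 100%, 100% and 84.9% with vehicle (adjusted p = 0.000400). With 5aCdR it was at 73.0%, 75.3% and 100%. In the other direction, the CpG at 4872490 was at 100%, 67.9%, 100% and 98.1% in primary cells and 0% in all vehicle libraries (adjusted p = 0.00119). It was not at 0% in MT2 given 5aCdR, at 18.8%, 25.6% and 28.9%. The CpG at 2227185 was at 100% in all primary libraries and at 21.6%, 15.6%, 0% and 0% with vehicle (adjusted p = 0.00202). Its 5aCdR libraries stood at 38.8%, 0% and 39.6%. The median depths of these CpGs over vehicle and primary libraries were 26 to 48 reads per library. With 0 methylated reads, levels of up to 11.5% at 26 reads and 6.25% at 48 reads are allowed.

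At 100 kb, the window from 4500001 to 4600000 rose most, from 46.8%, 30.7%, 33.2% and 41.8% to 62.8%, 69.8%, 57.2% and 63.1% over 45 CpGs (limma-moderated adjusted p = 4.58e-05). It lies in the 1 Mb window with the highest methylation excess and holds the tile at 4560001. The window from 12600001 to 12700000 rose from 40.9% ± 8.23 to 60.2% ± 5.42 (adjusted p = 0.00981) and was not called without primary replicate 1 or primary replicate 4. The 2 largest falls lay close together. The window from 3100001 to 3200000 fell from 58.3%, 37.7%, 45.5% and 41.7% to 10.9%, 12.6%, 14.1% and 17.3%, and that from 2900001 to 3000000 from 49.4% ± 11.2 to 17.4% ± 4.27 (adjusted p = 5.65e-05 and 0.000127). The window between them was also called lower, at 31.5% with vehicle and 48.3% in primary cells, and was chosen for mention after its values were seen. Large rises and falls thus stood within 2 Mb of each other on the same scaffold.

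**Figure D5:**
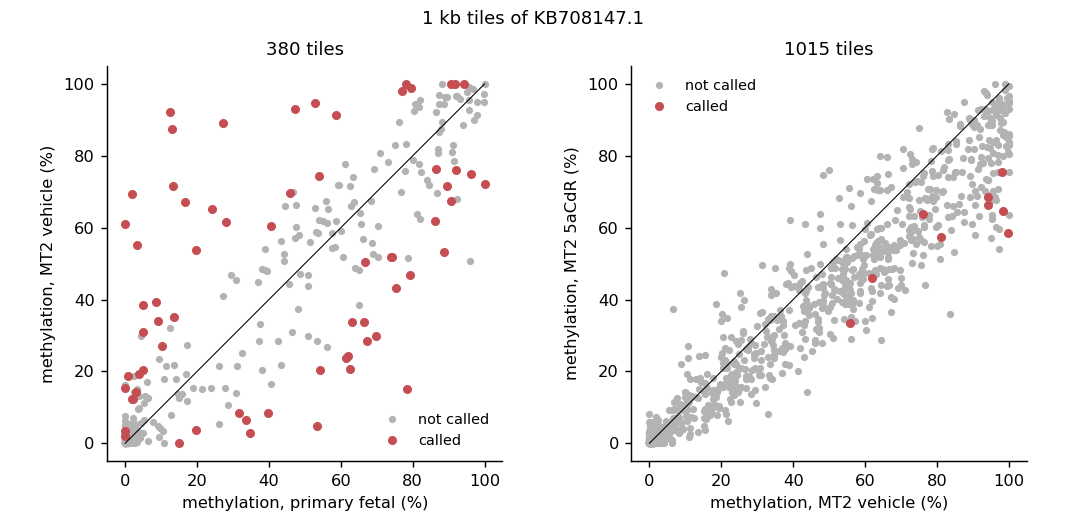
Methylation (%) of 1 kb tiles on the scaffold: vehicle against primary means for 380 tiles (left) and 5aCdR against vehicle means for 1015 tiles (right), with called tiles in red and a line at equal levels. On the left 38 called tiles lie above the line and 29 below it; on the right all 9 called tiles lie below it.

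With 5aCdR, the mean methylation of the scaffold fell. The mean fell from 35.3% ± 0.214 to 30.6% ± 0.615 (SD, n = 4 and 3), by -4.72 points, with all treated libraries below all vehicle libraries (exact two-sided permutation p = 0.0286, adjusted p = 0.0381). Relative to the vehicle level the change was -13.4%, against -12.9% on all other scaffolds and -13.2% at matched CpGs. The difference between the scaffold and matched CpGs was -0.415 points (exact permutation p = 0.257), inside the range of the other scaffolds, which ran from -4.04 to 3.75. With reads pooled over CpGs this difference was -1.16 points (exact permutation p = 0.0286), so whether the scaffold fell more than matched CpGs depended on how reads were weighted. The 5aCdR mean was below the vehicle mean in all 19 windows of 1 Mb with at least 20 common CpGs, and in 138 of 152 windows of 100 kb, with 14 above it. The excess over matched CpGs seen with vehicle was still there after 5aCdR, at 2.22 ± 0.596 points.

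The size of the fall followed the starting level. CpGs from 20 to 80% in primary cells fell by -7.66 points, those above 80% by -10.7 points and those below 20% by -0.826 points. By density, the fall went from -9.02 points at the lowest density to -0.254 points at the highest. Matched CpGs fell by -6.91, -8.85 and -1.11 points in the 3 level classes. The change on the scaffold minus that of matched CpGs was -2.52 points at the lowest density and -1.80 points above 80%, without overlap between the libraries of both groups; over whole scaffolds, such a gap without overlap was found on 5.35% of 187. CpGs above 80% in a library made up 23.5% ± 1.33 of the common CpGs with vehicle and 14.6% ± 0.571 with 5aCdR, while those from 20 to 80% made up 23.4% ± 2.82 and 31.4% ± 0.864. Matched CpGs shifted in the same way, from 21.8% to 13.7% above 80% and from 21.9% to 29.2% from 20 to 80%.

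Of 1015 tiles, 9 were called between 5aCdR and vehicle libraries, or 0.887%, where 0.799% of tiles over all scaffolds were called. All 9 were lower with 5aCdR (0.783% of all tiles were called lower), with a median vehicle level of 94.3% and falls of -12.4 to -41.1 points. The tile from 5777001 to 5778000 was fully methylated in all 4 primary libraries, at 95.5%, 100%, 98.4% and 100% with vehicle, and at 71.7%, 64.9% and 56.9% with 5aCdR (limma-moderated adjusted p = 0.0145). The tiles from 3633001 to 3634000 and from 14167001 to 14168000 fell from 94.3% ± 4.72 to 66.2% ± 6.83 and from 94.3% ± 5.97 to 68.6% ± 11.6 (SD, n = 4 and 3, limma-moderated adjusted p = 0.0322 and 0.0416). None of the 3 tiles overlapped between groups, as the rule for naming tiles required. None was called without 5aCdR replicate 3, vehicle replicate 3 or vehicle replicate 4. The number called fell to 2, 4, 2 and 2 without vehicle replicates 1, 2, 3 and 4.

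Only 2 of 7905 single CpGs were called, or 0.0253%, beside 0.0847% over all scaffolds, and both were lower with 5aCdR, beside 0.084% called lower over all scaffolds. The CpG at 12145234, read at a median depth of 1886 per library, stood at 86.9%, 89.8%, 90.6% and 92.6% with vehicle and at 71.3%, 65.4% and 68.6% with 5aCdR (limma-moderated adjusted p = 0.00145). The CpG at 4097463 stood at 97.4%, 95.6%, 100% and 99.8% with vehicle and 82.2%, 81.7% and 89.0% with 5aCdR, at a median depth of 2185 (adjusted p = 0.00937). Neither was called without any one of the 5aCdR libraries, and neither was tested once CpGs of very high coverage were left out. At an unadjusted p under 0.05, 7.88% of the CpGs of the scaffold passed and 8.82% of those elsewhere.

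In windows of 100 kb the share called on the scaffold stood farther from the background, but its windows were also read more deeply. Of 152 windows, 31 were called, or 20.4%, beside 5.79% of all windows. All 31 were lower with 5aCdR, and 5.77% of all windows were called in that direction. The falls in the called windows ran from -3.47 to -23.9 points. The window from 14400001 to 14500000 fell from 85.6%, 76.5%, 92.8% and 78.5% to 70.2%, 43.3% and 64.9% (limma-moderated adjusted p = 0.0307). The window from 16300001 to 16400000 fell from 45.2%, 33.2%, 60.0% and 44.7% to 29.6%, 24.4% and 23.0% (adjusted p = 0.00770). Treated and vehicle libraries did not overlap in either window, as the rule for naming windows required. Each call was lost without some single library: the first without vehicle replicate 1 or 5aCdR replicate 2, the second without 5aCdR replicate 3.

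Depth moved with this count. The median window of the scaffold had 2522 reads per library over its CpGs and the median window elsewhere 867. Windows of the scaffold held a median of 40.5 CpGs and those elsewhere 16. The scaffold was chosen for its MT2 read share and both groups here are MT2, so its depth is not independent of the choice. Among windows with at least 2000 reads, 21 of 95 on the scaffold were called, or 22.1%, and 82 of 491 elsewhere, or 16.7%. These windows still held a median of 60 CpGs on the scaffold and 39 elsewhere. With at least 1000 reads the shares were 21.1% and 9.30%. The difference in the share of called windows was thus smaller among deeply read windows, and the part of depth in it was not tested further. The count also depended on single libraries, at 20 without 5aCdR replicate 2, 5aCdR replicate 3, vehicle replicate 2 or vehicle replicate 4, and 15 without vehicle replicate 1.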

How the data were processed

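DNA input was 100 ng per library, and a commercial kit for reduced representation was used, per the labels' protocols. Tools named in the submitters' processing notes are Bowtie2, Bismark 0.22.1, methylKit 1.10.0, Trim Galore 0.5.0, bcl2fastq 2.20.0.42 and R 3.6.1. Their settings, the genome build and any removal of PCR duplicates are not given in the sources used here. In the deposited files, coverage is the count of reads on 1 strand of a CpG, and the C and T levels are a percent of that count, per the file headers. Positions with under 10 reads are absent from each file, so a CpG can be missing for depth alone.

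Methylated reads were recovered as whole counts, both strands were summed under the forward position, and shares were taken of all reads in the same set of CpGs. Primary cells, vehicle and 5aCdR were compared over libraries with exact permutation tests. Units were single CpGs with at least 10 reads in every library compared, 1 kb tiles with at least 3 CpGs and 100 kb windows with at least 10 CpGs, tested by a quasi-binomial model with limma 3.58.1 (R 4.3.3), a dispersion of at least 1 and Benjamini-Hochberg adjustment. On simulated data in which 100 units changed by 50 points, 99% of tiles, 100% of windows and 24% of single CpGs were recovered for vehicle against primary cells, and 93%, 100% and 8% for 5aCdR against vehicle. With changes of 30 points these shares were 66%, 95% and 4%, and 63%, 96% and 2%. The changed units were drawn from those of intermediate level on all scaffolds, and all units were given the same dispersion. Recovery at low or high levels, or on this scaffold alone, was not simulated. Python 3.11.15, numpy 2.4.6, pandas 2.3.3 and scipy 1.17.1 were used.

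Named tiles were the 5 with the largest rise and the 5 with the largest fall per comparison, among called tiles without overlap that moved by at least 25 points, with 2 windows of 100 kb and 2 CpGs per direction. For read share they were the 3 highest and 3 lowest windows of 1 Mb. The members and classes were chosen with earlier results of these data known. No plate of 5aCdR beyond the 3 libraries was analysed here, although the protocol names 4. Alternatives were another read minimum, other CpG sets, other classes, no dispersion, the omission of each library in turn and a replicate block. Limits that 0 counts allow use 3 reads and cover counting error only, since PCR reads without molecular identifiers are not independent molecules.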

Additional observations from a re-analysis of the deposited data

Results flagged for a closer look

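In 7 of 113 sets of 4 libraries, 1 value was flagged as apart from the other 3 by Dixon's test, where chance alone gives about 1 set in 20 if no values are tied. At the lowest density class of the scaffold, the lowest vehicle library had 56.1% methylation, and at a density of 30 or more CpGs the lowest vehicle library had 2.88%. The CpG at 19093181 had 84.9% in its lowest vehicle library. The CpG at 322361 had 5.26% in its highest primary library, and the CpG at 4872490 had 67.9% in its lowest primary library. The tile from 19093001 to 19094000 had 0.174% in its highest primary library, with the other 3 at 0%. In this tile and at the CpGs at 19093181 and 322361 the other 3 values were equal, so any difference is flagged, however small. In the 1 Mb window from 18000001 to 19000000, the lowest primary library had 10.5 reads per 10000.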

How the results depend on the processing

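Each alternative changed 1 choice, except that choosing CpGs by 2 primary libraries also left these out and that the replicate block for 5aCdR left out vehicle replicate 4. The read ratio of vehicle to primary stayed above 1 throughout. It was 1.47 at all listed CpGs. With CpGs chosen, after the data were seen, by at least 20 reads in libraries left out of the comparison it was 1.40 (primary replicates 1 and 2), 1.46 (primary replicates 3 and 4) and 1.45 (5aCdR), and with 50 reads 1.37, 1.39 and 1.38. Leaving out single libraries gave 1.29 to 1.31. The ratio of 5aCdR to vehicle was 1.01 at all listed CpGs, 1.02 with 20 reads, 1.06 without CpGs of very high coverage and 1.04 on the forward strand, with exact permutation p from 0.0571 to 0.314, and 1.04 to 1.06 without single libraries. These p-values are a description, since the choice used MT2 read shares.

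The difference in mean methylation of vehicle to primary cells was -0.211 points with 20 reads, 0.589 with reads pooled over CpGs, 0.802 without the window at 4 to 5 Mb (added after the data were seen) and 1.18 to 1.55 without single libraries (exact permutation p from 0.0286 to 0.0571, with 5 of 8 omissions below 0.05). The excess over matched CpGs was 3.02 points with level classes from primary replicates 1 and 2 alone (exact permutation p = 0.0667) and 2.57 to 2.79 without single libraries. The causes were not tested. For 5aCdR against vehicle, the mean change was -4.93 to -4.37 and the excess -0.648 to -0.0797 without single libraries, where no exact p can fall below 0.0667, and the excess was -1.16 with pooled reads (exact permutation p = 0.0286).

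For vehicle against primary cells, called CpGs, tiles and windows numbered 107, 20 and 11 with 20 reads and 1667, 285 and 94 with no dispersion. Tiles of at least 5 CpGs gave 15 calls. Without single libraries the counts were 122 to 177, 50 to 87 and 17 to 32. For 5aCdR against vehicle, the counts were 4 CpGs and 10 windows with 20 reads, 3383, 642 and 136 with no dispersion, 3 for tiles of at least 5 CpGs, and 0 CpGs without those of very high coverage by the limma-moderated test. Without single libraries they were 0 to 3, 2 to 7 and 15 to 28.

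Replicate numbers are shared by the labels. Over single CpGs, same-numbered libraries did not deviate together (r from -0.0102 to 0.00381), and libraries of different number had r from -0.0100 to 0.0167. Deviations at single CpGs also hold sampling error, so this check cannot exclude that the numbers pair libraries. With a replicate block, the difference in mean methylation was 1.35 points and the excess 2.67 for vehicle against primary cells (exact sign-flip p = 0.125, the smallest possible). For the excess this p cannot be read as a test, since the primary libraries set its level classes. With the block, the mean change with 5aCdR was -4.66 points over 3 numbers without vehicle replicate 4 (p = 0.25 by the exact test, the smallest possible). In the same setting, 5 tiles and 17 windows were called with 5aCdR, with none of the 3 named tiles.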
